A study of Mus musculus with 30 samples.

Results

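Skeletal muscle of 4 Kif3aΔTub mice that had received sActRIIB-Fc was compared with muscle of 3 wild-type mice that had received PBS, 1 array per mouse. The arrays were chosen by their tissue, genotype and treatment labels and make up 7 of the 30 arrays of the series. The comparison asks how far muscle gene expression in treated mutants still differed from that of untreated wild type. It crosses genotype and treatment at once, so it does not by itself say which of them a difference belongs to.

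Kif3aΔTub mice lack Kif3a, a kinesin-2 motor subunit needed to build primary cilia, in kidney tubules, and serve as a model of chronic kidney disease. The genotype label of these mice, Kif3aKSPCre, points to Cre recombinase under the promoter of kidney-specific cadherin, which is active in tubule epithelium. sActRIIB-Fc, called the trap here, is a soluble activin receptor type IIB fused to an antibody Fc part. It was injected into the peritoneum at 10 mg/kg, weekly and 2 times, and PBS is the saline given to controls. All mice were 6 weeks old. Muscle of 4 Kif3aΔTub mice given PBS and of 4 wild-type mice given the trap entered the fit as well, and their values are set beside the main comparison. The labels do not name the muscle sampled, and the sex, strain and floxed alleles of the wild-type mice are not given in the sources used here.

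Activins and related ligands of the transforming growth factor-β (TGF-β) family bind activin type II receptors on muscle fibres. The receptor complex then phosphorylates SMAD2 and SMAD3, which lowers muscle mass. A soluble receptor competes for these ligands before they reach the fibre. Wasting muscle is known for induced ubiquitin ligases such as Trim63 (MuRF1) and Fbxo32 (atrogin-1). Muscle fibres are surrounded by basement membrane and by a collagen matrix made mainly by resident fibroblasts, which joins them to tendon.

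The label of the tissue was checked against its markers. All 12 skeletal muscle identity genes were higher in muscle than in the kidneys of the same study (gene means 11.09 to 14.31 in muscle, 2.87 to 7.62 in kidney, log2 intensity). None of 12 kidney tubule genes was higher in muscle, where their gene means ran from 3.59 to 11.15. Their mean of 5.36 in muscle serves as a mark of the dim end of the array. A member as bright as 11.15 raises that mean, so the mark is rough. Array medians lay between 5.94 and 6.06 in muscle. The 18S ribosomal RNA control read 13.05 to 13.40 in treated mutants and 13.11 to 13.28 in untreated wild type, so the groups overlapped. It read 12.50 to 13.13 in untreated mutants. Kif3a itself was not called in muscle, at 7.41, 7.33, 7.18 and 7.37 in treated mutants against 7.12, 7.08 and 7.76 in untreated wild type (log2 change 0.00 ± 0.18, SE; adjusted p = 0.998 by limma).

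Treated mutants differed from untreated wild type in 173 of 17782 genes (0.973%), of which 26 were higher (0.146%) and 147 lower (0.827%). A gene is called here at a Benjamini-Hochberg adjusted p under 0.05 in limma, over all genes. The median called gene was 0.92 higher or 0.95 lower on the log2 scale, where 1 unit is 2-fold, and 77 genes (0.433%) passed 2-fold, 12 of them higher and 65 lower. Treated mutant and untreated wild-type arrays were fully separated in 172 of the 173 called genes, against 2088 of all genes (11.7%). By the same test 2840 genes (16.0%) differed between untreated mutants and untreated wild type. Trap against PBS called 1125 genes (6.33%) in mutants and 11 genes (0.0619%) in wild type. The effect of the trap differed between mutants and wild type in 30 genes (0.169%). These comparisons share arrays, so their values are given side by side and their likeness is not tested. The count in treated mutants rests heavily on the 3 untreated wild-type arrays. It was 105, 80 and 54 without replicate 1, 2 and 3 of them, and 111 without treated mutant replicate 1. All 173 genes kept their sign in each of these fits, and 50 remained called without untreated wild-type replicate 3.

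Treated mutant replicate 2 stood apart in adipocyte markers. The mean of the 16 markers was 10.34 on that array, 8.65 to 8.98 on the other treated mutant arrays and 8.34 to 8.58 in untreated wild type. An untreated mutant array also read high, at 9.55. Limma called 0 of the 16, with 9 genes higher at an unadjusted p under 0.05 (4.68% of all genes were) and a median of 0.72. The 9 MHC class II genes averaged 6.92 on this array, against 5.94 to 6.06 on the other treated mutant arrays and 6.23 to 6.38 in untreated wild type. Without this array 163 genes were called in place of 173, with 10 fibrillar collagens and 7 tendon genes lower. The part of fat tissue in other values of this array was not tested.

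The called genes were read against 46 gene lists that cover fibre types, wasting, signalling, matrix, cell types and metabolism. Of the listed genes, 38 were lower in treated mutants and 4 higher, beside 0.827% and 0.146% of all genes. A collagen, matrix, basement membrane, tendon or fibroblast list held 30 of the 38, whereas the atrophy, glucocorticoid and interferon lists held 1 call or none. With 0.973% of all genes called, lists of 19 to 23 genes can hold so few calls without differing from other genes. The lists were chosen with earlier results of these data known, so where the calls fall depends in part on that choice.

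**Figure D1:**
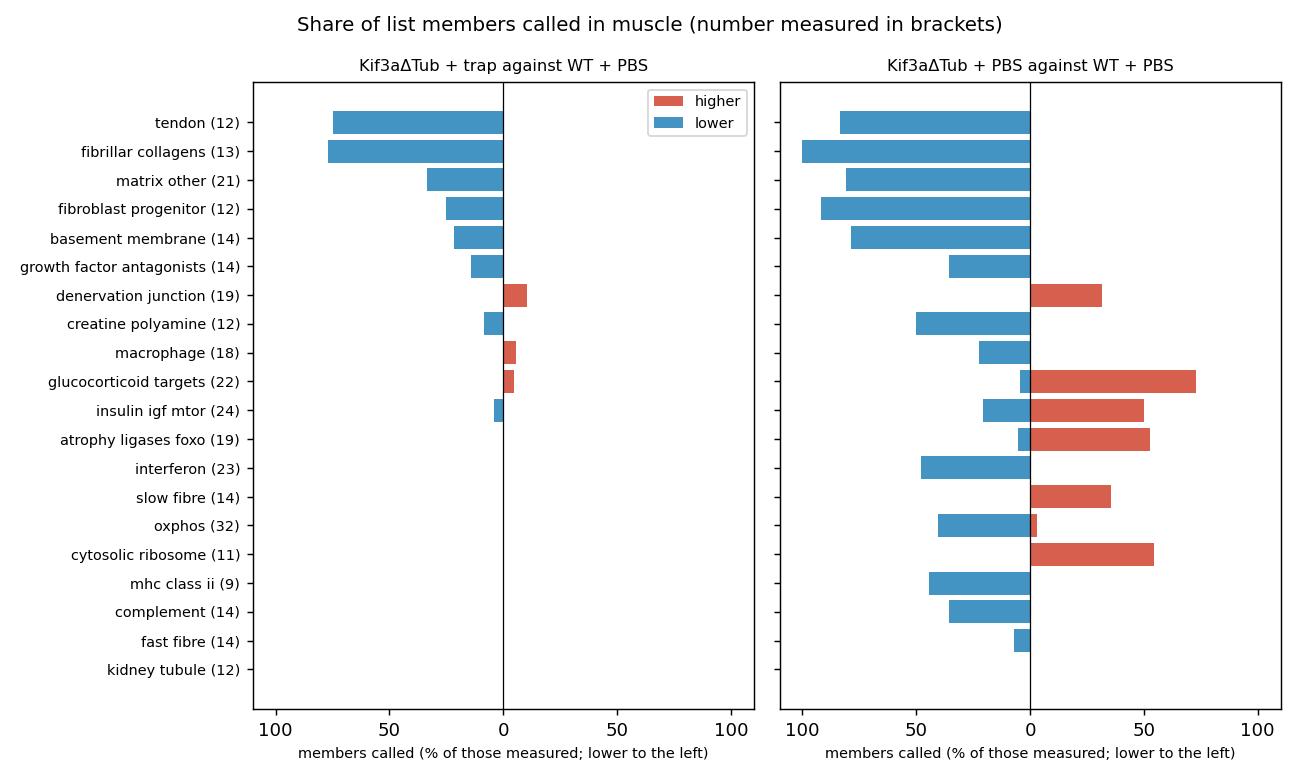
Share of measured members of 20 gene lists called in muscle, as percent, with members called higher to the right of 0 and lower to the left. The left panel compares treated mutants with untreated wild type and the right panel untreated mutants with untreated wild type; the tendon (9 of 12) and fibrillar collagen (10 of 13) bars are long in both panels, and the interferon and atrophy bars of the right panel have no counterpart in the left.

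The genes with the largest difference in each direction that the trap also moved in mutants were Mss51 and Vsig4. Mss51 encodes a mitochondrial protein of skeletal muscle, and work in mouse muscle cells places it downstream of TGF-β family ligands. Its level was 5.78, 6.41, 7.68 and 6.43 in treated mutants, against 11.34, 11.15 and 9.54 in untreated wild type. Every treated mutant array lay below every untreated wild-type array, and the difference was the largest of all called genes (log2 change -4.10 ± 0.60, SE; 17.2-fold; adjusted p = 0.00379, limma). Untreated mutants stood at 9.57, 7.74, 10.77 and 10.19 and were not called against untreated wild type (-1.11 ± 0.60, adjusted p = 0.24). Trap against PBS gave -2.99 ± 0.56 in mutants (adjusted p = 0.00651) and -4.70 ± 0.60 in wild type (adjusted p = 0.00477). Treated wild-type arrays lay between 5.35 and 6.48 and overlapped the treated mutants.

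The promoter of Mss51 is shown because the gene had the largest difference, and that of Vsig4 because it had the smallest adjusted p. The 250 bases before each RefSeq gene start are given (build GRCm38.p6), 5′ to 3′ on the gene's strand, with motif matches in capitals. Mss51 lies at chr14:20496902-20497151 on the minus strand and Vsig4 at chrX:96293439-96293688 on the minus strand.
Mss51: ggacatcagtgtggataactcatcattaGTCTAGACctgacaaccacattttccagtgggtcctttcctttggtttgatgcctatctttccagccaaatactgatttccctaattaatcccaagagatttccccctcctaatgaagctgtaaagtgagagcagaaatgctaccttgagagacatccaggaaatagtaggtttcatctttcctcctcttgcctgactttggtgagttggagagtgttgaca
Vsig4: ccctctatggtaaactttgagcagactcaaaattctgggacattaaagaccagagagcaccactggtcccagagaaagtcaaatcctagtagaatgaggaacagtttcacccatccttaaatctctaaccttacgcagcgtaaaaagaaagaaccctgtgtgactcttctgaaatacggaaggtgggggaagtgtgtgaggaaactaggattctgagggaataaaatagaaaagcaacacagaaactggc

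The capitals in the Mss51 promoter mark GTCTAGAC, the palindrome that SMAD3 and SMAD4 bind, at positions -222 to -215 from the gene start. It reads the same on both strands. The motif is held by 55 of 32851 promoters of this length (0.167%), and by 1 of the 125 called genes whose promoter is in the table. The Vsig4 window holds none of the motifs searched, which were GTCTAGAC, CCAAT on either strand (33.8% of promoters) and the E-box CANNTG (66.2% of promoters).

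Vsig4 encodes a complement receptor of tissue-resident macrophages. Its level was 7.04, 7.97, 7.33 and 7.37 in treated mutants, against 5.04, 4.54 and 4.64 in untreated wild type. The groups lay far apart, with a log2 change of 2.69 ± 0.19 (adjusted p = 4.09e-06, limma). Untreated mutants stood at 4.84 to 5.34, and treated wild type at 7.39 to 7.53. Trap against PBS gave 2.39 ± 0.18 in mutants and 2.70 ± 0.19 in wild type, both called. The untreated levels are under the mean of the kidney tubule genes in muscle, so the fold there is open to the array's background. In whole tissue, a change in the number of cells of a type and a change in RNA per cell cannot be told apart. Vsig4 was the single call among 18 macrophage genes, of which 3 were higher and 1 lower at an unadjusted p under 0.05.

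Ak4, Btnl9 and Cldn1 also differed in treated mutants while untreated mutants were not called. Ak4, a mitochondrial adenylate kinase, was 7.81, 7.81, 7.40 and 7.88 in treated mutants, against 5.86, 6.04 and 6.32 in untreated wild type (1.65 ± 0.24, adjusted p = 0.00354). Its other 3 probe sets gave 2.14, 0.20 and 0.12. Trap against PBS raised Ak4 in mutants (1.94 ± 0.22) and in wild type (1.68 ± 0.24). Btnl9, a butyrophilin-like membrane protein, was higher by 1.27 ± 0.21 (7.11 to 8.04 in treated mutants, 6.03 to 6.52 in untreated wild type). Its change was 1.36 ± 0.19 for trap against PBS in mutants. Cldn1, a tight-junction protein, was lower (-1.36 ± 0.22), at 4.25, 4.34, 4.89 and 5.0 in treated mutants against 5.99, 5.99 and 5.96 in untreated wild type. Trap against PBS gave -0.88 ± 0.20 for Cldn1 in mutants (adjusted p = 0.0184), and its other probe set changed by -0.21 in the main comparison. The treated mutant levels of Cldn1 are under the kidney tubule mean.

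**Figure D2:**
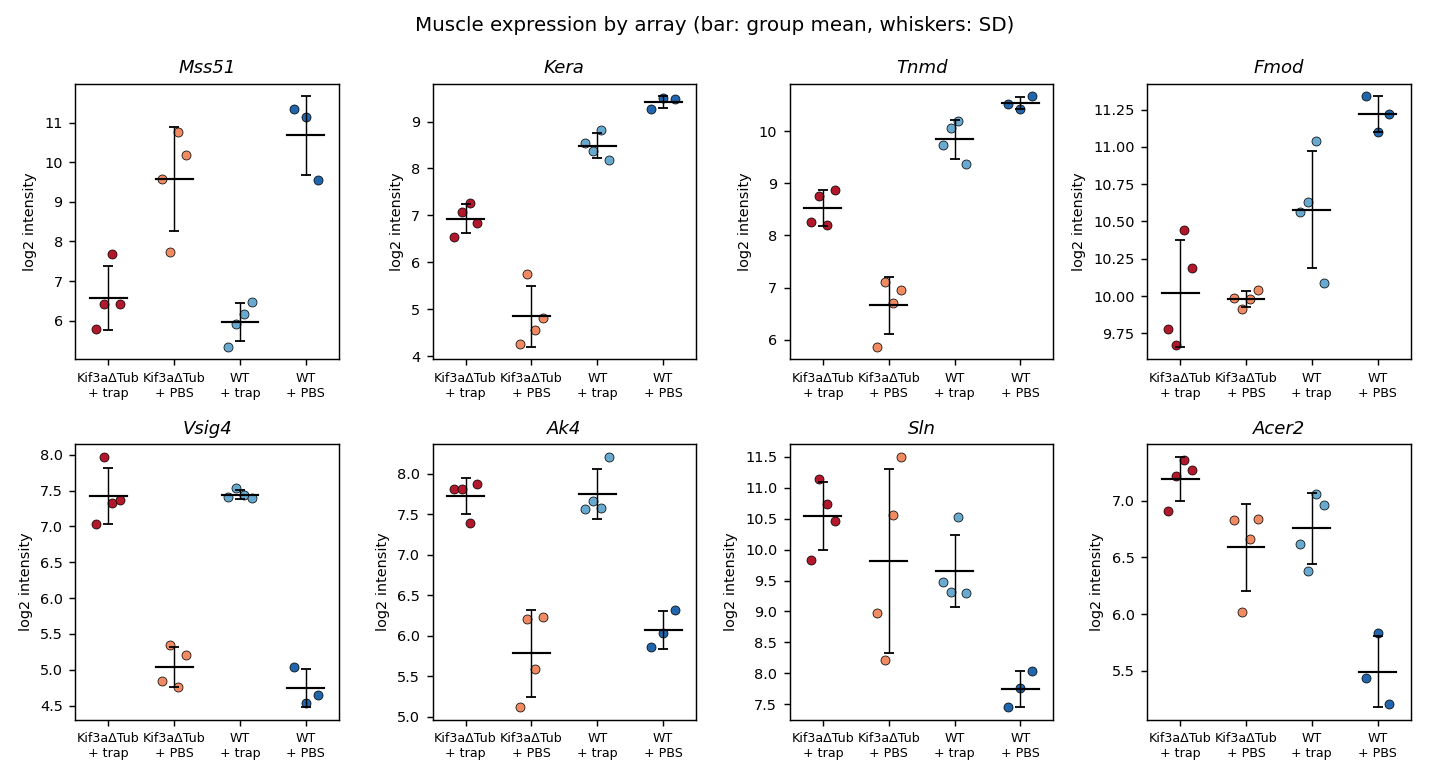
Log2 intensity of 8 genes in each muscle array, with 1 point per array, the group mean as a bar and the SD as whiskers, for treated mutants, untreated mutants, treated wild type and untreated wild type from left to right. Mss51, Vsig4 and Ak4 separate the groups by treatment, Kera and Tnmd are lowest in untreated mutants, and Fmod is at about 10 in both mutant groups.

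Sln was the gene with the largest rise. It encodes sarcolipin, which inhibits the calcium pump of the sarcoplasmic reticulum. Its level was 9.84, 11.15, 10.74 and 10.46 in treated mutants, against 7.45, 7.76 and 8.03 in untreated wild type (2.80 ± 0.57, adjusted p = 0.0267). Untreated mutants spread from 8.22 to 11.50 (2.06 ± 0.57, adjusted p = 0.0224), and the second Sln probe set gave 0.66 in the main comparison. Treated wild type stood at 9.30 to 10.53, above every untreated wild-type array, though limma did not call trap against PBS there (1.91 ± 0.57, adjusted p = 0.253). Trap against PBS in mutants gave 0.74 ± 0.53 (adjusted p = 0.476). The Sln call was lost in 7 of 18 other settings, in 6 of them by leaving out an array (any 1 of the 3 untreated wild-type arrays, or treated mutant replicate 2, 3 or 4; adjusted p = 0.0583 to 0.115).

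Acer2, a ceramidase of the Golgi apparatus, was 6.91 to 7.36 in treated mutants and 5.21 to 5.83 in untreated wild type (1.70 ± 0.21, adjusted p = 0.000863). Its change was 1.09 ± 0.21 in untreated mutants (adjusted p = 0.00247). The trap also raised it in wild type, by 1.26 ± 0.21 (adjusted p = 0.0347), and in mutants trap against PBS gave 0.60 ± 0.20 (adjusted p = 0.0789). Its second probe set changed by 0.07 in the main comparison. Acsm3, a mitochondrial acyl-CoA synthetase, was higher by 1.81 ± 0.35 in treated mutants and 2.20 ± 0.35 in untreated mutants. Cth, the enzyme that makes cysteine from cystathionine, was higher by 1.50 ± 0.30 in treated mutants and by 1.99 ± 0.30 in untreated mutants. For both genes the untreated wild-type level was under the kidney tubule mean. Slc25a25, a mitochondrial carrier of ATP, was higher by 1.55 ± 0.31 in treated mutants (adjusted p = 0.0241), and was not called in untreated mutants (0.89 ± 0.31, adjusted p = 0.0635). Ppp1r3c, which targets a phosphatase to glycogen, was higher by 1.28 ± 0.29 (adjusted p = 0.0453), a call lost in 11 of 18 settings, among them all 7 fits that leave out an array. The call was lost without any 1 of the untreated wild-type arrays for Slc25a25 and Cth (adjusted p up to 0.122), and without untreated wild-type replicate 1 or 3 for Acsm3. It was also lost without treated mutant replicate 4 for Slc25a25 and Cth, and without replicate 1 for Slc25a25.

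Glul, the glutamine synthetase induced by glucocorticoids in muscle, stood at 11.14, 12.10, 11.50 and 11.41 in treated mutants, against 10.26, 10.95 and 9.73 in untreated wild type. The change was 1.22 ± 0.27 in treated mutants (adjusted p = 0.0446), 2.18 ± 0.27 in untreated mutants and -0.96 ± 0.25 for trap against PBS in mutants (adjusted p = 0.0359). Glul was thus called in all 3 comparisons, with treated mutants between the other groups, and the main call was lost in 9 of 18 settings, including fits without untreated wild-type replicate 1 or 3 or treated mutant replicate 2, 3 or 4 (adjusted p = 0.0841 to 0.213).

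Collagens were lower in treated mutants. Of 13 fibrillar and related collagens, 10 were lower, where 0.827% of all genes were, and 0 higher. The median change was -1.07 beside 0.00 over all genes, with a range of -1.48 to -0.22. All 13 were lower in untreated mutants (median -2.26), where 9.04% of all genes were. All 13 were higher with trap than with PBS in mutants (median 1.28), where 4.18% of all genes were. The 3 chains that were not called in treated mutants were Col3a1 (-0.84 ± 0.33, adjusted p = 0.339), Col6a3 (-0.99 ± 0.31, adjusted p = 0.174) and Col14a1 (-0.22 ± 0.30, adjusted p = 0.857). The count of lower chains ranged from 2 to 10 when an array was left out, with 2 without untreated wild-type replicate 3, 5 without replicate 2 and 6 without replicate 1. The median stayed between -1.14 and -0.98 in all 18 settings.

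Col1a1 and Col1a2 encode the chains of type I collagen, the main collagen of tendon and of the connective tissue of muscle. Col1a1 was 9.63, 10.20, 9.40 and 9.87 in treated mutants, against 11.28, 11.19 and 11.28 in untreated wild type (-1.48 ± 0.27, adjusted p = 0.0115). Untreated mutants lay lower still, at 6.52 to 7.98 (-3.93 ± 0.27, adjusted p = 2.06e-07). The treated mutants therefore sat between the other groups without touching either, and trap against PBS in mutants gave 2.45 ± 0.25 (adjusted p = 0.000181). The Col1a1 call was lost without any 1 of the untreated wild-type arrays (adjusted p = 0.0507 to 0.0669). Col11a1, a chain of type XI collagen that co-assembles in fibrils, was 6.08, 6.50, 6.11 and 6.26 in treated mutants, against 7.65, 7.54 and 7.90 in untreated wild type (-1.46 ± 0.16, adjusted p = 0.000206). Col12a1, whose product lies on the surface of collagen fibrils, was lower (-1.30 ± 0.22), and its other probe sets gave -0.48 and 0.16. Its call was lost without untreated wild-type replicate 3 (adjusted p = 0.0648).

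In the matrix list of proteoglycans, elastic fibre proteins and collagen-processing enzymes, 7 of 21 measured genes were lower and 0 higher (median -0.77). In untreated mutants 17 were lower (median -1.16). Over all genes 0.827% were lower in treated mutants and 9.04% in untreated mutants. Mfap4, a microfibril-associated protein, was 5.51, 6.32, 6.14 and 6.02 in treated mutants and 7.37, 7.93 and 7.57 in untreated wild type (-1.62 ± 0.25, adjusted p = 0.00567). Serpinh1, the collagen chaperone of the endoplasmic reticulum, was lower in treated mutants (-0.95 ± 0.19) and in untreated mutants (-1.86 ± 0.19), and its call in treated mutants was lost without untreated wild-type replicate 2 or 3 or treated mutant replicate 3 or 4. The count of 7 was 3 to 5 when an array was left out, with 3 without untreated wild-type replicate 2 or 3 and 4 without treated mutant replicate 1, 2 or 4. Timp2, an inhibitor of matrix metalloproteinases, was lower (-0.70 ± 0.11; adjusted p = 0.00567). In the basement membrane list 3 of 14 genes were lower, against 11 in untreated mutants, beside the same shares of 0.827% and 9.04% over all genes. Col4a5, a type IV collagen chain, was 5.21, 5.58, 5.95 and 5.59 in treated mutants, against 7.84, 7.49 and 7.77 in untreated wild type (-2.12 ± 0.21, adjusted p = 0.000202). The other Col4a5 probe set gave -0.76. Sparc, a collagen-binding matrix protein, was lower (-0.85 ± 0.12), as was Nid1, which links laminin to type IV collagen (-0.71 ± 0.12), whose call was lost without untreated wild-type replicate 3. Another type IV chain, Col4a1, had -0.59 ± 0.14 (adjusted p = 0.0645), and the laminins listed were not called.

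Tendon genes were lower in treated mutants to an extent that for several members was close to that in untreated mutants. Of 12 tendon genes, 9 were lower and 0 higher (median -1.31), where 0.827% of all genes were lower. In untreated mutants 10 were lower (median -1.24), where 9.04% of all genes were. Trap against PBS in wild type called 0 of the 12 by limma, with a median of -0.60, and the mean of the list was 7.18 to 7.63 in treated wild type, against 7.85 to 8.30 in untreated wild type. The treated wild-type arrays thus lay below every untreated wild-type array and above every treated mutant array (6.50 to 6.80). Trap against PBS in mutants called 3 of the 12 higher, Kera, Tnmd and Wif1, with a list median of 0.14. Kera, a small leucine-rich proteoglycan, was 6.55, 7.08, 7.26 and 6.84 in treated mutants, against 9.26, 9.49 and 9.48 in untreated wild type (-2.47 ± 0.27, adjusted p = 0.000206). Tnmd, tenomodulin, a membrane glycoprotein of tendon cells, was 8.25, 8.75, 8.20 and 8.88 in treated mutants, against 10.52, 10.43 and 10.67 in untreated wild type (-2.02 ± 0.26, adjusted p = 0.00122). Wif1, a secreted Wnt inhibitor, was lower (-2.18 ± 0.28). For these 3 genes untreated mutants were lower still, at -4.56 ± 0.27, -3.88 ± 0.26 and -3.54 ± 0.28.

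Fmod, fibromodulin, which regulates collagen fibril assembly, showed another pattern. It was 9.78, 9.67, 10.44 and 10.19 in treated mutants, against 11.34, 11.10 and 11.22 in untreated wild type (-1.20 ± 0.19, adjusted p = 0.00702). Untreated mutants stood at 9.91 to 10.04 (-1.24 ± 0.19), inside the range of the treated mutants, and trap against PBS in mutants gave 0.04 ± 0.18 (adjusted p = 0.937). In wild type trap against PBS gave -0.64 ± 0.19 (adjusted p = 0.258), with 10.09 to 11.04 in treated wild type, below every untreated wild-type array. All 5 other Fmod probe sets were lower in treated mutants, by -1.07 to -1.15. Mkx, a homeobox factor of tendon at the dim end of the array, gave -1.17 ± 0.21 in treated mutants, -1.25 in untreated mutants and 0.08 for trap against PBS in mutants. Thbs4, a thrombospondin of tendon and muscle, gave -1.46 ± 0.28, -1.13 and -0.33 in the same order. Scx (-0.40 ± 0.20), Tnc (-1.42 ± 0.38) and Chodl (-0.61 ± 0.16) were not called in treated mutants. The tendon count ranged from 5 to 8 when an array was left out, with 5 without untreated wild-type replicate 2, without replicate 3 or without treated mutant replicate 1.

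The promoters of Col1a2 and Tnmd are printed for the collagen and tendon groups, in the same form as those above. Col1a2 lies at chr6:4505368-4505617 on the plus strand and Tnmd at chrX:133850758-133851007 on the plus strand (GRCm38.p6).
Col1a2: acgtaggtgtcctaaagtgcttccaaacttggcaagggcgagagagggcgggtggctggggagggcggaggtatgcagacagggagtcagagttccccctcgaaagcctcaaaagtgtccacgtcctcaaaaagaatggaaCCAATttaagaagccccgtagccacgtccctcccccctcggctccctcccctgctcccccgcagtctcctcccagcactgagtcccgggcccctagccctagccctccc
Tnmd: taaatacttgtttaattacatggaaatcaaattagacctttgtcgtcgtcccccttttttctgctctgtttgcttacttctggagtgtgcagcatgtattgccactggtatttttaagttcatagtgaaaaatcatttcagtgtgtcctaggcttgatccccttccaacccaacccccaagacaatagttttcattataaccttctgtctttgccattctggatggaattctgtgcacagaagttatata

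The capitals in Col1a2 mark a CCAAT box at -109 to -105, a motif held by 33.8% of promoters of this length. The Tnmd window holds none of the motifs searched. Col1a2 was lower in treated mutants (-1.07 ± 0.19; adjusted p = 0.0105) and in untreated mutants (-2.62), with 1.55 for trap against PBS in mutants.

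**Figure D3:**
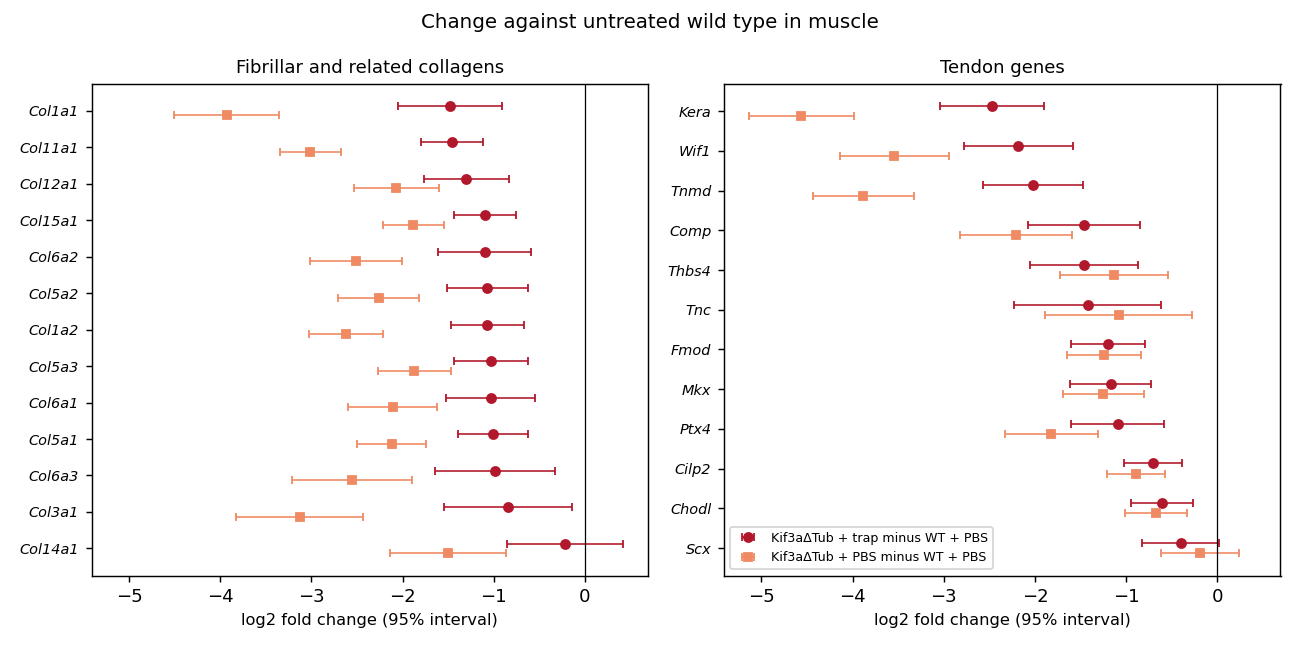
Log2 change against untreated wild type with its 95% interval for 13 fibrillar and related collagens (left) and 12 tendon genes (right), in treated mutants (circles) and untreated mutants (squares). The collagens lie nearer to 0 in treated mutants than in untreated mutants, whereas Fmod, Mkx and Cilp2 lie at similar values in both.

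In the list of fibroblast and progenitor markers, 3 of 12 measured genes were lower in treated mutants (median -0.66), where 0.827% of all genes were. In untreated mutants 11 were lower (median -1.54), where 9.04% of all genes were. The count in treated mutants was 2 to 3 when an array was left out. Its mean level per array was 8.12 to 8.27 in treated mutants, against 8.83 to 8.97 in untreated wild type. In the tendon and fibroblast lists 1 marker each, Mkx and Tcf21, was under the kidney tubule mean in all 4 groups. Thy1, a fibroblast surface protein, was 7.48, 7.60, 6.96 and 7.03 in treated mutants, against 8.02, 8.40 and 8.61 in untreated wild type (-1.08 ± 0.22, adjusted p = 0.0283), a call lost without untreated wild-type replicate 2 or 3 or treated mutant replicate 3 or 4. Pdgfra (-0.52 ± 0.17) and Cd34 (-0.82 ± 0.20) were not called. Col15a1, Lum and Mfap5 are in this list and in a matrix list. The part of fibroblast and tendon cell content in the matrix values was not tested.

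Other large falls are named here by the size of their change, and their roles were not tested as a group. Ecrg4, a secreted peptide precursor, was 6.19, 6.85, 6.57 and 6.75 in treated mutants, against 8.58, 8.68 and 8.63 in untreated wild type (-2.04 ± 0.21, adjusted p = 0.000202). Its second probe set gave -2.39, and Ecrg4 is among the called fibroblast and progenitor markers counted above. Ret, the receptor tyrosine kinase for GDNF family ligands, was 6.07, 5.50, 5.77 and 5.98 in treated mutants and 7.40, 7.65 and 8.01 in untreated wild type (-1.86 ± 0.18, adjusted p = 0.000129). The other Ret probe set gave -0.49. Angptl1, a secreted angiopoietin-like protein, was lower (-1.97 ± 0.27), and its other probe sets gave -0.57 and -0.12. Aplnr, the apelin receptor of endothelial cells, was lower (-1.77 ± 0.37; adjusted p = 0.0333). In untreated mutants the change of Aplnr was -3.96 ± 0.37, and trap against PBS in mutants gave 2.20 ± 0.35. C1qtnf3 was lower (-2.23 ± 0.46), with treated mutants from 3.15 to 5.49 (mean 4.33). That mean is under the kidney tubule mean of 5.36, so the fold is open to the array's background. The C1qtnf3 and Aplnr calls were each lost in 7 of the other settings, including fits without any 1 of the untreated wild-type arrays and without treated mutant replicate 1 or 3, and for Aplnr also without replicate 4. Igfbp6, a binding protein of insulin-like growth factors, was 8.66, 8.36, 8.88 and 8.63 in treated mutants, against 9.51, 9.84 and 9.55 in untreated wild type. Its change was -1.0 ± 0.15 in treated mutants and -0.93 ± 0.15 in untreated mutants. Mb, myoglobin, was the muscle identity gene that differed, by -0.69 ± 0.13 (adjusted p = 0.0129), a call lost without any 1 of the untreated wild-type arrays (adjusted p = 0.0538 to 0.0705). Slc30a2, a zinc transporter, was lower (-1.52 ± 0.32, adjusted p = 0.0335), at 5.52 to 6.34 in treated mutants and 7.12 to 7.58 in untreated wild type. The trap also lowered it in wild type (-1.96 ± 0.32, adjusted p = 0.0329), with 4.57 to 6.27 in treated wild type. The main Slc30a2 call was lost in 6 of 17 settings, each leaving out an array (any 1 of the untreated wild-type arrays, or treated mutant replicate 1, 2 or 4).

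Another set of genes was chosen as called in untreated mutants, called in the opposite direction by the trap and not called in treated mutants. This rule itself asks for a return toward untreated wild type, so the set describes such genes and cannot test for a return. With the 18S signal as a covariate, trap against PBS in mutants called 73 genes in place of 1125. Of these, 4 were lower in place of 382. A gene that is not called is not thereby shown to be at the wild-type level, so the 95% interval of the main change is given. Lcn2, lipocalin-2, an acute-phase protein, was 4.63, 4.78, 4.97 and 4.76 in treated mutants, against 4.80, 5.0 and 4.75 in untreated wild type (-0.06, 95% interval -1.39 to 1.26). Untreated mutants stood at 10.01, 6.29, 6.06 and 6.87, with 1 array far above the others. Pik3r1, the regulatory subunit of PI3 kinase, was 0.99 higher (interval 0.37 to 1.62, adjusted p = 0.147), beside 2.64 in untreated mutants. Cebpd, a transcription factor, was 1.31 higher (0.38 to 2.23, adjusted p = 0.227), beside 2.96. Fkbp5, a glucocorticoid-induced chaperone, was 0.85 higher (0.06 to 1.63, adjusted p = 0.399), beside 2.22. S100a8, a calcium-binding protein of myeloid cells, had 1.36 (0.27 to 2.45, adjusted p = 0.308), beside 3.03. It was 4.27 to 6.36 in treated mutants and 3.65 to 4.16 in untreated wild type, dim levels that did not overlap. Ctxn3 had 0.60 (-0.12 to 1.32), beside 2.35. The intervals of Pik3r1, Cebpd, Fkbp5 and S100a8 thus lie wholly above 0.

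In the opposite direction, Retnla, a secreted resistin-like protein, was 9.31, 8.94, 9.36 and 9.32 in treated mutants, against 9.37, 9.64 and 9.66 in untreated wild type (-0.32, interval -1.14 to 0.50). It was 6.00 to 8.37 in untreated mutants. Gamt, which makes creatine, changed by -0.53 (interval -1.31 to 0.25), beside -2.55 in untreated mutants. Lum, lumican, a collagen-binding proteoglycan, had -0.72 (interval -1.42 to -0.02), beside -2.44, and Nrep had -1.08 (interval -1.97 to -0.19), beside -3.04. The intervals of Lum, Nrep, Col3a1 and Col6a3 lie wholly below 0 although their adjusted p-values, 0.174 to 0.428, miss the threshold.

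No gene of the atrophy list was called between treated mutants and untreated wild type. In this list of atrophy ligases and FoxO factors, limma called 0 of 19 measured genes in treated mutants. At an unadjusted p under 0.05, 4 were higher, where 4.68% of all genes were, and 0 lower. The change was above 0 in 17 of the 19 and below 0 in 2 (median 0.13). The list mean was 8.64 to 8.77 in treated mutants and 8.36 to 8.52 in untreated wild type, without overlap. It was 8.78 to 9.43 in untreated mutants and 8.47 to 8.71 in treated wild type. In untreated mutants 10 were higher, where 6.93% of all genes were, and 1 was lower. Fbxo32 was 10.53, 9.26, 10.13 and 10.30 in treated mutants, against 10.51, 9.62 and 9.56 in untreated wild type (0.16, interval -0.98 to 1.30). The untreated mutants spread from 10.20 to 13.50 (1.67 ± 0.54, adjusted p = 0.0454). Trim63 was 11.92, 11.32, 11.17 and 11.48 in treated mutants, against 11.30, 10.76 and 11.17 in untreated wild type (0.39, interval -0.22 to 1.01), and 0.94 ± 0.29 in untreated mutants. The groups overlapped in both genes, and neither interval excludes a 2-fold rise. Fbxo30, a ubiquitin ligase of the atrophy programme, changed by 0.21 ± 0.13. Igf1, the growth factor, was 10.13, 10.19, 9.76 and 9.69 in treated mutants and 10.29, 10.24 and 10.80 in untreated wild type (-0.50, interval -1.03 to 0.03), beside -2.03 ± 0.25 in untreated mutants.

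Of 22 measured glucocorticoid targets, 1 was higher in treated mutants (Glul). At an unadjusted p under 0.05, 15 were higher, where 4.68% of all genes were, and 0 lower. The list median was 0.70 in treated mutants, 1.22 in untreated mutants (16 higher and 1 lower, beside 6.93% and 9.04% of all genes) and -0.49 for trap against PBS in mutants. The mean level of the list was 9.96 to 10.31 in treated mutants, against 9.20 to 9.56 in untreated wild type, and the arrays of these groups did not overlap. It was 10.20 to 11.20 in untreated mutants, 9.30 to 10.57 in treated wild type, and both ranges overlapped that of treated mutants. Among 19 denervation and junction genes, 2 were higher in treated mutants, Sln and Gadd45a, where 0.146% of all genes were. Gadd45a, a stress-induced growth arrest gene, was 9.73, 9.86, 9.76 and 9.80 in treated mutants and 9.10, 9.19 and 9.02 in untreated wild type (0.68 ± 0.15, adjusted p = 0.0415). The call was lost in 8 of 18 settings, among them all 7 fits that leave out an array (adjusted p = 0.0821 to 0.168). Its change was 0.66 ± 0.15 in untreated mutants, 1.00 ± 0.15 for trap against PBS in wild type, and 0.03 ± 0.14 for trap against PBS in mutants. Myog, the myogenic factor induced by denervation, changed by 0.00 ± 0.35. Of 24 genes of insulin, IGF and mTOR signalling, Igfbp6 was the single call in treated mutants, against 12 higher and 5 lower in untreated mutants (6.93% and 9.04% of all genes). At an unadjusted p under 0.05, 9 of the 24 were higher and 2 lower in treated mutants, where 4.68% and 6.45% of all genes were. The median change was 0.26, and the list mean was 9.23 to 9.38 in treated mutants and 9.01 to 9.13 in untreated wild type, without overlap.

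**Figure D4:**
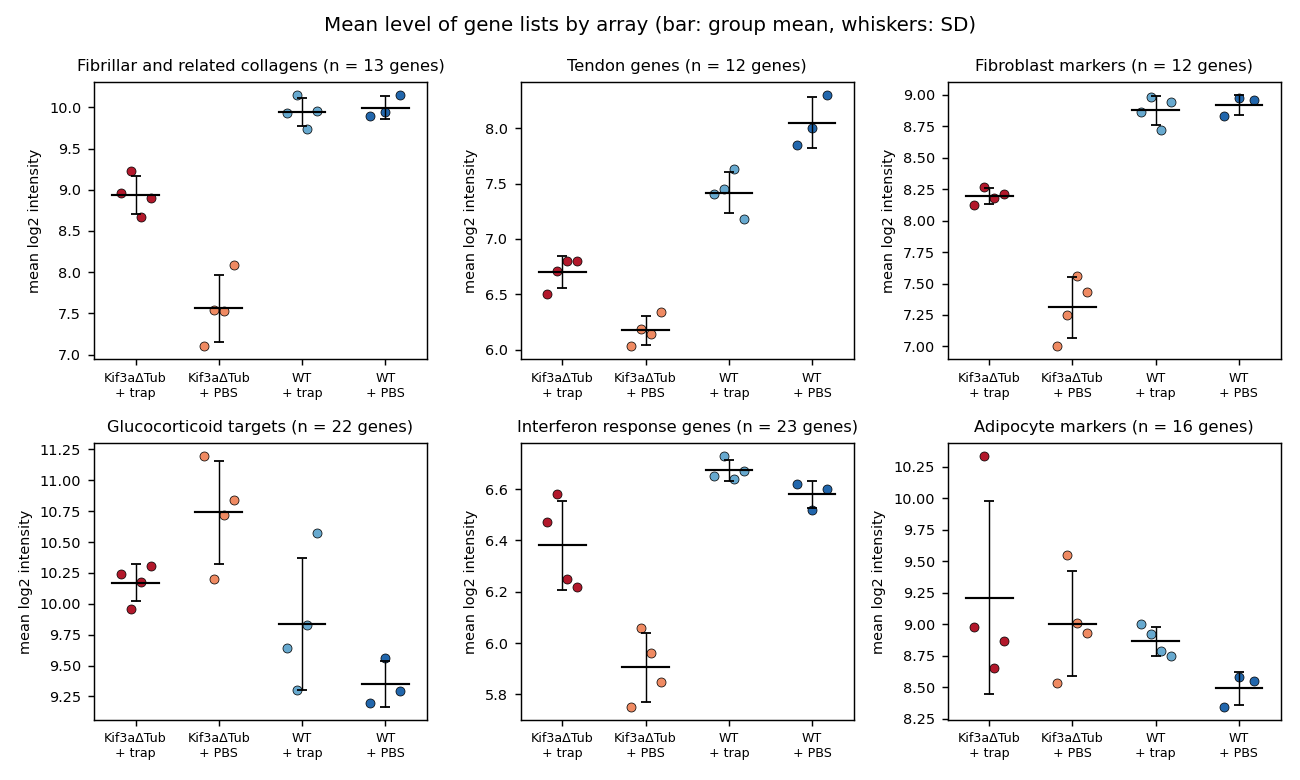
Mean log2 intensity of 6 gene lists in each muscle array, with 1 point per array, group means as bars and the SD as whiskers; groups run from treated mutants at the left to untreated wild type at the right. Tendon genes average 6.50 to 6.80 in treated mutants and 7.85 to 8.30 in untreated wild type, and 1 treated mutant array stands at 10.34 for adipocyte markers.

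In the activin and bone morphogenetic protein pathway, 2 of 14 antagonists were lower, where 0.827% of all genes were. The ligands, receptors and targets held no call. Fst, follistatin, which binds activins, was 5.66, 6.53, 6.38 and 6.51 in treated mutants, against 7.39, 6.88 and 7.44 in untreated wild type (-0.97 ± 0.20, adjusted p = 0.0313). Untreated mutants gave -0.67 ± 0.20 (adjusted p = 0.0329), and the main call was lost in 6 of 18 settings, including fits without untreated wild-type replicate 1 or 3 or treated mutant replicate 1 or 3. Treated wild type lay at 6.28 to 6.77 for Fst, below every untreated wild-type array, though limma did not call trap against PBS there (-0.70 ± 0.20, adjusted p = 0.231). Bambi, a decoy receptor, was 5.63, 6.17, 6.24 and 6.22 in treated mutants, against 7.13, 7.11 and 6.85 in untreated wild type (-0.96 ± 0.17, adjusted p = 0.0115), a call lost without untreated wild-type replicate 1 or 2 (adjusted p = 0.0579 to 0.0675). Of the 14 antagonists, 1 was higher and 5 lower at an unadjusted p under 0.05, where 4.68% and 6.45% of all genes were. Among 14 ligands limma called 0, with 0 higher and 2 lower at that unadjusted level. Inhba, the gene of the activin A subunit, changed by -0.22 ± 0.11 (adjusted p = 0.479), Inhbb by 0.00 ± 0.12 and the antagonist Fstl3 by -0.19 ± 0.16. Among 18 receptors 0 were called (1 higher and 3 lower unadjusted). Acvr2b, the receptor from which the trap is made, was 7.70, 7.60, 7.78 and 7.81 in treated mutants, against 8.01, 7.34 and 7.82 in untreated wild type (0.00 ± 0.17, adjusted p = 0.998). In untreated mutants it was higher by 0.53 ± 0.17 (adjusted p = 0.0471). Among 13 target genes 0 were called (1 higher and 2 lower unadjusted), and Id1 had 0.87 ± 0.29 (adjusted p = 0.22).

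Fibre type, oxidative phosphorylation and interferon lists held no call by limma in treated mutants. This was so for 14 fast fibre genes (0 higher and 0 lower at an unadjusted p under 0.05), 14 slow fibre genes (1 and 0), 32 oxidative phosphorylation genes (0 and 4) and 23 interferon genes (0 and 4). Over all genes 4.68% were higher and 6.45% lower at that level. The change was below 0 in 30 of the 32 oxidative phosphorylation genes (median -0.13) and in 19 of the 23 interferon genes (median -0.18). For slow fibre genes it was above 0 in 12 of the 14 (median 0.27), with list means that overlapped (10.87 to 11.16 in treated mutants, 10.49 to 11.03 in untreated wild type). The oxidative phosphorylation mean was 12.50 to 12.63 in treated mutants and 12.68 to 12.72 in untreated wild type, without overlap. It was 12.55 to 12.60 in treated wild type. In untreated mutants 11 interferon genes and 13 oxidative phosphorylation genes were lower, where 9.04% of all genes were, and 5 slow fibre genes were higher, where 6.93% were. Of 20 endothelial genes Aplnr was lower and the rest were not called. Of 12 pericyte and smooth muscle genes limma called 0, with 0 higher and 8 lower unadjusted, where 6.45% of all genes were (median -0.51). Of 13 lymphocyte genes Ighm was lower (-1.57 ± 0.35, adjusted p = 0.0411), a call lost in 10 of 18 settings. All 7 fits that leave out an array are among the 10 (adjusted p = 0.0678 to 0.156), and the change across settings was -1.65 to -0.37. Among its 7 other probe sets, 1 gave -0.95 and 6 lay between -0.19 and 0.02.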

How the data were processed

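Total RNA came from frozen muscle and kidney of 15 mice (QIAZOL extraction, biotin label) and was read on Affymetrix mouse expression arrays, as the labels' protocols state. The deposited values, made by the authors, are log2 intensities for each probe set, and their log base was inferred from their range. The sources used here do not give how they were normalized, summarised or corrected for background. Levels of different probe sets are not compared as amounts of RNA. The number of arrays limits the precision (median SE of the main change 0.14).

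Of 35088 probe sets, 31563 carry 1 gene symbol, 825 several and 2700 none. Those with 1 symbol gave 17782 genes. A gene with several probe sets took the one brightest on average in the 15 muscle arrays. In RefSeq 102 symbols had no match and were kept, and 0 were updated. No filter on low values was applied.

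A limma model (version 3.58.1, R 4.3.3) of all 15 muscle arrays held 4 group means and 1 moderated spread (15.9 degrees of freedom). P-values were adjusted by Benjamini and Hochberg's method across the 17782 genes, with a threshold of 0.05. Errors after ± are SEs of the fit. The test was checked on simulated data. Promoters and motifs came from RefSeq, and figures were drawn with matplotlib.

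The named genes (61, of which 38 are called) are, by rule, the 10 largest rises and falls, and 6 per direction of 3 kinds. These are genes called alike in untreated mutants, genes called alike for the trap in mutants but not in untreated mutants, and genes called in untreated mutants, called oppositely for the trap and not called in treated mutants. Up to 3 called members per list and a fixed panel were added. Other list members and single genes are named beside their lists. The genes, the 46 lists and the tests were chosen with earlier results of these data known. Replicate numbers do not pair animals: same-numbered arrays of the compared groups had correlated deviations of -0.24 to -0.02. The labels give no batch.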

Additional observations from a re-analysis of the deposited data

Results flagged for a closer look

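In 5 named genes, 1 treated mutant array lay far from the other 3, with a gap to the nearest of them above Dixon's critical share of the whole range. In 61 groups tested, chance alone flags about 1 in 20. Ak4 was lowest on replicate 3, at 7.40 against 7.81 to 7.88 on the others. Bambi was lowest on replicate 1, at 5.63 against 6.17 to 6.24. The remaining genes stood out on replicate 2, the array with high adipocyte markers. There Col3a1 was highest at 12.72 against 12.09 to 12.20, Lum was highest at 10.05 against 9.50 to 9.58, and Retnla was lowest at 8.94 against 9.31 to 9.36.

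In 10 of the 61 named genes the effect of the trap differed between mutants and wild type by limma's interaction term (effect in mutants minus effect in wild type, log2). Over all genes 0.169% did. All 10 were lower in treated mutants than in untreated wild type. Apart from a fixed panel, the named genes were picked by rules that use the same arrays, so neither the count nor this shared direction is a test. Kera had 3.01 (2.09 in mutants, -0.92 in wild type; adjusted p = 0.00215), and Tnmd had 2.56 (1.86 and -0.70; adjusted p = 0.00465). Wif1 had 2.41 (1.35 and -1.06; adjusted p = 0.0129), Col4a5 had 2.16 (1.31 and -0.85; adjusted p = 0.00372) and Ecrg4 had 1.89 (1.09 and -0.80; adjusted p = 0.0103). Col1a1 had 2.93 (2.45 and -0.48; adjusted p = 0.00219) and Col11a1 had 2.05 (1.55 and -0.50; adjusted p = 0.000913). Sparc had 1.31 (1.08 and -0.22; adjusted p = 0.00301), Thy1 had 1.65 (1.58 and -0.07; adjusted p = 0.0408) and Ret had 1.26 (0.90 and -0.36; adjusted p = 0.0499). The trap changed none of the 10 in wild type at an adjusted p under 0.05.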

How the results depend on the processing

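Treated mutants against untreated wild type called 173 genes, and leaving out 1 array gave 54 to 163. Array weights gave 341, and a 2-fold minimum 77. The other settings, which changed the probe set rule, level filter, scaling, prior variance, arrays fitted or covariates, stayed within 1.5 times of 173. All 173 genes that a setting tested kept their sign in it, and 39 (5 higher, 34 lower) were called in every setting that tested them. Up to 18 settings count here, and the 2-fold minimum is not among them. Among them are Mss51, Vsig4, Ak4, Acer2, Kera, Tnmd, Wif1, Col4a5, Ecrg4, Ret, Col11a1 and Fmod.

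The other comparisons moved more. Untreated mutants against untreated wild type (2840) gave 1643 with the groups compared alone, 853 with the 18S signal and 1348 with the actin 3′ minus 5′ signal as a covariate, 558 at 2-fold, and 1659 to 3607 with an array left out. Trap against PBS in mutants (1125) gave 1881 with array weights, 322 with its groups alone, 73 with 18S, 236 with actin, 190 at 2-fold and 555 to 2140 with an array left out. Trap against PBS in wild type (11) gave 6 above the median level, 130 with array weights, 29 with its groups alone, 6 with actin and 1 to 31 with an array left out. The interaction (30) gave 51 above the median level, 363 with array weights, 48 with a trended prior, 54 with the replicate block and 11 with 18S. The cause was not tested.

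Centring arrays on their median moved the median change of untreated mutants over all genes to 0.07, against -0.05 as deposited. The calls there were then 2104 higher and 1096 lower in place of 1232 and 1608. For trap against PBS in mutants they were 534 and 625 in place of 743 and 382, and 641 and 554 after quantile normalization. The main comparison had 41 higher and 137 lower after centring, in place of 26 and 147. Replicate numbers as a replicate block gave 175 calls in the main comparison, 141 of them among the 173; same-numbered arrays did not deviate together, so they share only a number. With 3 untreated wild-type arrays, small changes are out of reach, and a gene that is not called may still differ.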

Other observations

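All collagen chains were then counted, a set chosen after its values were seen. Of the 41 chains measured, 16 were lower in treated mutants and 0 higher (median -0.54), where 0.827% of all genes were lower. Among the 16 are Col4a5 and the 10 fibrillar and related collagens that were counted above. The other called chains lie outside the lists. In untreated mutants 25 were lower (median -1.11), where 9.04% of all genes were. Trap against PBS in mutants called 18 chains higher, where 4.18% of all genes were. Col8a1 (-1.64 in treated mutants, -2.15 in untreated mutants) and Col8a2 (-1.36 and -1.78) encode type VIII collagen, a network collagen of vessel walls. For both, trap against PBS in mutants was not called (0.52 and 0.42). Col4a4, a partner chain of Col4a5 in type IV collagen, had -1.44 and -1.98. Col22a1, a collagen of the muscle-tendon junction, had -0.79 in treated mutants and -1.55 in untreated mutants, both called. Among chains of cartilage, Col11a2 was lower (-0.77, adjusted p = 0.0175), as was Col11a1, whereas Col2a1 (-0.43), Col9a1 (0.11), Col9a2 (-0.10), Col9a3 (-0.14) and Col10a1 (0.15) were not called.

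Among the 26 higher genes, 2 outside the lists concern uptake of glucose and fatty acids. Tbc1d4, a substrate of Akt that governs glucose transporter traffic, was higher by 1.12 in treated mutants and 1.70 in untreated mutants. Slc27a1, a fatty acid transport protein, was higher by 0.84 and 0.92. Among the lower genes, Vegfc, a growth factor of lymphatic vessels, had -1.17 and -1.02, and Sdc1, a cell-surface heparan sulphate proteoglycan, had -1.42 and -1.24. Ramp1 (-1.08) and Ramp2 (-0.76), which partner the receptors of calcitonin gene-related peptide and adrenomedullin, were both lower in treated mutants.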
